A study of Mus musculus with 6 samples.

Results

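Amino acid transporters are membrane proteins of the solute carrier families that carry amino acids into and out of cells and organelles. The group described here held 10 genes chosen by name, with earlier results of these data known: Slc7a11, Slc7a5, Slc3a2, Slc7a1, Slc7a3, Slc1a4, Slc1a5, Slc38a1, Slc38a2 and Slc6a9. Their counts and medians set beside those of all genes are therefore a description and not a test. All 10 were among the 55291 genes listed in the count table, and all 10 passed the filter on low counts, as did 14290 genes in all. RNA-seq libraries had been made from WT (wild-type) MEFs, mouse embryonic fibroblasts, in 3 groups of 2 libraries. The control group received vehicle, with no exposure time given in the sources used here, another received 1 μM MASM7 for 6 h, and the last received 20 μM MFI8 for 6 h. MASM7 is a small molecule activator of the mitofusins, the outer membrane proteins MFN1 and MFN2 that tether and fuse mitochondria, and MFI8 is a small molecule inhibitor of the same proteins. The concentrations and times come from the study's text rather than from the sample labels. The cells were WT in every group and had been provided by another laboratory, and how many lines or embryos they represent is not given in the sources used here. The concentrations differed between the compounds, so compound and concentration cannot be told apart.

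These transporters fall into families by substrate and mechanism. SLC7A11 (xCT) takes up cystine in exchange for glutamate, and cystine supplies the cysteine of glutathione. SLC7A5 (LAT1) exchanges large neutral amino acids such as leucine, and both SLC7A11 and SLC7A5 are light chains that reach the plasma membrane bound to the heavy chain SLC3A2 (CD98hc, 4F2hc). SLC7A1 (CAT-1) and SLC7A3 (CAT-3) carry the cationic amino acids arginine and lysine and need no heavy chain. SLC1A4 (ASCT1) and SLC1A5 (ASCT2) exchange small neutral amino acids, glutamine among the substrates of SLC1A5. SLC38A1 (SNAT1) and SLC38A2 (SNAT2) use the sodium gradient to concentrate glutamine and alanine, and SLC6A9 (GLYT1) takes up glycine. Several of these genes are known targets of ATF4, the transcription factor of the integrated stress response, and Slc7a11 is also a known target of NFE2L2 (NRF2).

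Promoter sequences are shown for 3 members: Slc7a11, which had the largest difference with MFI8, Slc1a4, which had a smaller one, and Slc38a2, which had nearly none. Slc7a11 and Slc1a4 were the only members with windows that held the ATF4 motif given below, so the 3 do not stand for the other members. The sequences are RefSeq windows on GRCm38.p6 of 300 bases, from 250 bases before to 50 after the transcription start, written 5′ to 3′ on the strand of the gene. Such windows were at hand for 6 of the 10 members, with 9 windows in all. Capitals mark the motif matches. In Slc7a11 (chr3:50443564-50443863, minus strand) and Slc1a4 (chr11:20332664-20332963, minus strand) they mark the ATF4 core TGATGNAA on either strand. In Slc38a2 (chr15:96699679-96699978, minus strand) they mark TGACNNNGC, the core of the antioxidant response element that NFE2L2 binds.
Slc7a11: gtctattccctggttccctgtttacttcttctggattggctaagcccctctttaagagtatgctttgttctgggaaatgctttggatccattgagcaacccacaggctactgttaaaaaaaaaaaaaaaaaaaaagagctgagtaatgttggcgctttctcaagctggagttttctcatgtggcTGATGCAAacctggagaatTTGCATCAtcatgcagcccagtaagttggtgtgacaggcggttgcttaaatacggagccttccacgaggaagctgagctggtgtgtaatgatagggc
Slc1a4: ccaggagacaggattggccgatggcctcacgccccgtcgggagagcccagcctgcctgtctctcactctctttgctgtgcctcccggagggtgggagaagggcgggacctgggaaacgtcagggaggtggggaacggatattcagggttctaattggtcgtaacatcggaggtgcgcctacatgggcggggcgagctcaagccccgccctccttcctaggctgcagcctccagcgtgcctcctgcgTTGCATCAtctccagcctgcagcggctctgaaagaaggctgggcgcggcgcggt
Slc38a2: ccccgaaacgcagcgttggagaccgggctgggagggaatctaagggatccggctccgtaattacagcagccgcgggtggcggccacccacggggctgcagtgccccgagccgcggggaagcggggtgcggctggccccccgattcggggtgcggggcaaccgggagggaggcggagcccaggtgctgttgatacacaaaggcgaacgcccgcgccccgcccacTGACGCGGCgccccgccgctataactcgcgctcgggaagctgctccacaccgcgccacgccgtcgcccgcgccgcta

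Counted from 1 at the 5′ end of the window, the Slc7a11 window held TGATGCAA at bases 185 to 192 and its reverse complement TTGCATCA at bases 204 to 211. The Slc1a4 window held TTGCATCA at bases 247 to 254, across the transcription start, and the Slc38a2 window held TGACGCGGC at bases 224 to 232. None of these matches overlapped another. Both strands were searched, and the ATF4 core was present in 3.97% of 32817 promoter windows of this length, the antioxidant core in 12.4% and the E-box CACGTG, which MYC binds, in 7.15%. Among the other members with windows, Slc7a1 and Slc6a9 held an antioxidant core and no ATF4 core, Slc3a2 held none of the 3 motifs, and no window of a member held the E-box. For MFI8 against vehicle the log2 fold changes of these others were 0.46 for Slc6a9, 0.33 for Slc3a2 and 0.22 for Slc7a1. Those of the members shown were 0.86 for Slc7a11, 0.35 for Slc1a4 and -0.015 for Slc38a2. Whether motifs and differences go together was not tested. A match describes the letters only.

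Depth per library was between 22791792 and 30677751 counts on genes. Mitochondrially encoded genes took 1.37% to 1.82% of the counts, with the MFI8 libraries (1.37% and 1.43%) lowest and the MASM7 libraries (1.61% and 1.51%) also below the vehicle libraries (1.66% and 1.82%). Of 8 fibroblast markers, Col1a1, Col1a2, Vim and Fn1 were each at 342 TPM or more in every library. Col3a1 (14.6 to 32.0 TPM), Pdgfrb (11.6 to 19.5 TPM) and Pdgfra (7.46 to 14.9 TPM) were far lower, and Thy1 was at 0.28 to 0.75 TPM. TPM is a level scaled for transcript length and library size, and the deposited values have the same sum in every library. Epithelial, haematopoietic and endothelial markers other than Cd68 were near 0, with Adgre1, Cd3e and Kdr at 0 counts throughout. Cd68 was at 8.91 to 11.9 TPM, a range that overlapped with that of Pdgfra. The summed level of 4 neural markers was 49.8 and 52.8 TPM with vehicle, 65.6 to 65.8 with MASM7 and 65.1 to 71.5 with MFI8. Nearly all of it was Tubb3, with Rbfox3 at 0 counts throughout, Gfap at up to 0.42 TPM and Mbp at up to 3.23 TPM. The part of this list in the results on the transporters was not tested. Mfn1 was at 57.0 to 63.5 TPM and Mfn2 at 79.1 to 87.3 TPM across the 6 libraries, so both targets of the compounds were transcribed.

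In vehicle-treated MEFs the transporter levels spanned a wide range, with the leucine exchanger and its heavy chain at the top and the cationic transporter Slc7a3 at the bottom. Slc7a5 (chr8:121881150-121907694, minus strand) was highest at 280 ± 11.3 TPM (SD, n = 2), 33.6% of the TPM of all 10 genes. Slc3a2 (chr19:8706882-8723369, minus strand) at 203 ± 13.9 and Slc38a2 (chr15:96687392-96699730, minus strand) at 196 ± 4.19 TPM came next, and their libraries overlapped. Slc7a1 (chr5:148327410-148399904, minus strand) followed at 72.2 ± 1.27 TPM. The neutral exchangers Slc1a4 (chr11:20302180-20332713, minus strand) at 31.0 ± 5.67 and Slc1a5 (chr7:16781340-16798274, plus strand) at 28.1 ± 1.62 TPM also overlapped. The glycine transporter Slc6a9 (chr4:117834506-117875198, plus strand) was at 15.7 ± 0.50 TPM. Slc38a1 (chr15:96571418-96642913, minus strand) at 3.61 ± 0.12 and Slc7a11 (chr3:49892526-50443614, minus strand) at 3.10 ± 0.22 TPM were low, and Slc7a3 (chrX:101079210-101086020, minus strand) was lowest at 0.72 ± 0.039 TPM, on 17 and 20 counts. All coordinates are those of GENCODE vM21 on GRCm38.

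The order stayed nearly the same under both compounds. With MASM7 the means kept the vehicle order. With MFI8 a single pair of neighbours changed places, since Slc7a11 (5.11 and 6.29 TPM) lay above Slc38a1 (3.94 and 4.54 TPM) in both libraries. The summed level of the 10 genes was 809 and 857 TPM with vehicle, 854 and 907 TPM under MASM7, and 931 and 1029 TPM under MFI8. The MFI8 sums lay above all 4 others, whereas the MASM7 and vehicle sums overlapped. In such bulk RNA, a change in the number of cells of a type and a change in RNA per cell cannot be told apart.

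**Figure D1:**
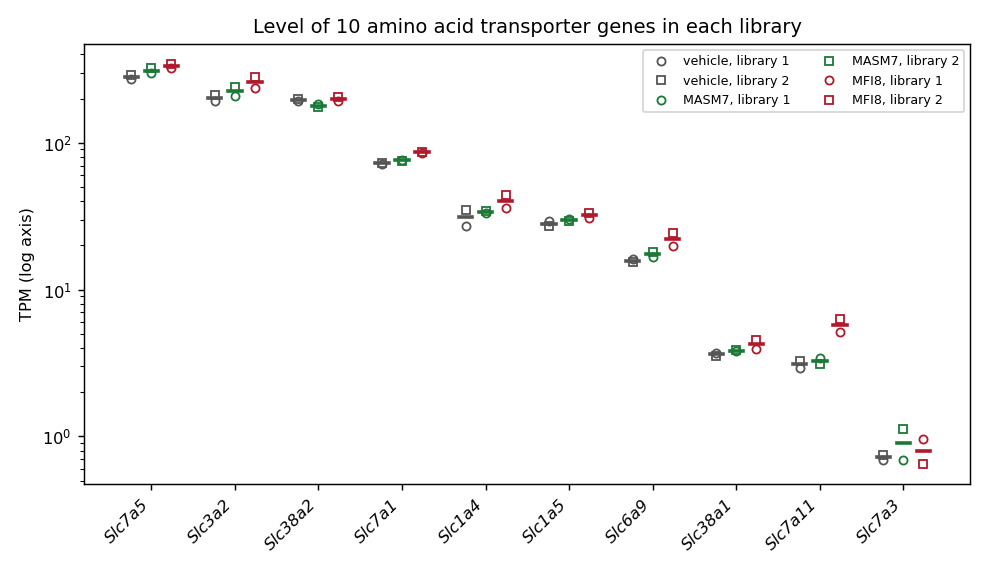
TPM of each transporter gene in each library on a log axis, with circles for library 1, squares for library 2 and a bar at the mean of the 2 libraries. Levels ran from 280 TPM for Slc7a5 to 0.72 TPM for Slc7a3 with vehicle, and Slc7a11 with MFI8 (red, mean 5.70 TPM) stood above its vehicle (3.10 TPM) and MASM7 (3.26 TPM) levels.

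The comparison of MFI8 with vehicle asks how these genes differed in cells given the mitofusin inhibitor. The libraries held no cells without mitofusins and no inactive compound. Effects through the mitofusins and other effects of either compound therefore cannot be told apart. Values of 9 of the 10 transporters were higher with MFI8, and in 8 of them both MFI8 libraries lay above both vehicle libraries. The largest difference was that of the cystine transporter Slc7a11, at 1.81 times the vehicle level, followed by the glycine transporter Slc6a9, the neutral amino acid exchanger Slc1a4 and the heavy chain Slc3a2. The glutamine transporter Slc38a2 was at nearly the same level in both groups.

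By edgeR's quasi-likelihood F test, with p-values adjusted by the Benjamini-Hochberg method over every gene tested, 0 of the 10 transporters had an adjusted p under 0.05, and neither did any of the 14290 genes tested (0%). With the replicate number added to the fit as a block, 6 of the 10 (Slc7a11, Slc7a5, Slc3a2, Slc7a1, Slc1a4 and Slc6a9) and 5.04% of all genes had one. The labels do not say what libraries with the same number share. At an unadjusted p under 0.05, 6 of the 10 differed, all higher: Slc7a11, Slc6a9, Slc7a1, Slc7a5, Slc3a2 and Slc1a4. Over all genes tested, 9.86% passed that limit, 5.21% as higher and 4.65% as lower. Both MFI8 libraries lay above both vehicle libraries for 20.9% of all genes and below them for 19.3%. Across the 10 genes the log2 fold changes had a median of 0.22, against 0.0027 over all genes tested, where 50.7% had a value above 0. DESeq2's Wald test called 1 of the 10, Slc7a11, where it called 0.368% of the genes to which it gave an adjusted p, and limma on log2(TPM + 1) called 0 of the 10 and 0 genes in all. Called here means an adjusted p under 0.05. An exact permutation test of 2 libraries against 2 cannot give a two-sided p below 0.333.

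Among the light chains, the cystine transporter stood apart. For Slc7a11, 266 and 321 reads were counted in the vehicle libraries, 401 and 378 in the MASM7 libraries, and 454 and 750 in the MFI8 libraries. Scaled to library size by TMM (CPM) these were 11.7 and 12.8 with vehicle, 13.6 and 12.4 under MASM7, and 19.8 and 24.3 under MFI8. Both MFI8 libraries were well above the other 4, which overlapped. The fitted log2 fold change for MFI8 against vehicle was 0.86 ± 0.12 (SE), a fold of 1.81, with a 95% confidence interval of 0.59 to 1.12 on the log2 scale. Its edgeR adjusted p was 0.0924 (unadjusted 3.5e-05), the smallest adjusted p of any gene and shared by 20 genes, and only 2 of the 14290 genes had a smaller unadjusted p. With DESeq2 the log2 fold change was 0.85 ± 0.16 with an adjusted p of 0.00014. The value was 0.69 without MFI8 replicate 2 (edgeR adjusted p = 0.162) and 0.99 without MFI8 replicate 1 (edgeR adjusted p = 0.0067). Each of these fits leaves 1 MFI8 library, which is assumed to vary like the other groups, and the adjusted p was up to 0.284 on leaving out another library.

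The leucine exchanger and the shared heavy chain had smaller differences on far higher levels. Slc7a5 was at 287 and 300 CPM with vehicle, 315 and 344 under MASM7, and 331 and 354 under MFI8. Its MFI8 libraries did not overlap with vehicle, and the log2 fold change was 0.22 ± 0.061 (edgeR adjusted p = 0.357), or 0.14 once GC content and transcript length entered the fit as offsets. Slc3a2 was at 194 and 211 CPM with vehicle, 210 and 245 under MASM7, and 232 and 275 under MFI8. It too was higher in both MFI8 libraries, by a log2 fold change of 0.33 ± 0.092 (edgeR adjusted p = 0.357), with a gap between the MFI8 replicates of 0.25 on the log2 scale. Without MFI8 replicate 2 the value for Slc3a2 was 0.20.

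The cationic transporters differed in how well they could be measured. Slc7a1, which supplies arginine, was at 234 and 237 CPM with vehicle, 252 and 250 under MASM7, and 272 and 278 under MFI8. Its replicates lay close together and the 3 groups did not overlap, with a log2 fold change for MFI8 against vehicle of 0.22 ± 0.048 (edgeR adjusted p = 0.248). Slc7a3 was covered by only 17 and 20 reads in the vehicle libraries, 22 and 37 in the MASM7 libraries, and 23 and 21 in the MFI8 libraries. At this depth its log2 fold change of 0.099 had a 95% interval of -0.76 to 0.96, so that a difference between the groups was not detectable, and without MFI8 replicate 1 it was -0.18.

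Among the sodium-dependent neutral amino acid exchangers, Slc1a4 was at 30.2 and 38.6 CPM with vehicle, 37.4 and 38.8 under MASM7, and 39.3 and 48.2 under MFI8. The MFI8 libraries lay above vehicle, but the lower of them was only just above the higher vehicle library. The log2 fold change was 0.35 ± 0.12 (edgeR adjusted p = 0.419), and it was 0.19 without vehicle replicate 1 and 0.54 without vehicle replicate 2. Slc1a5, the glutamine exchanger, was at 34.8 and 31.6 CPM with vehicle, 36.2 and 35.2 under MASM7, and 35.7 and 38.5 under MFI8. Its MFI8 libraries were above vehicle by a log2 fold change of 0.16 ± 0.078 (unadjusted p = 0.066 and adjusted p = 0.533 in edgeR), which was 0.095 without vehicle replicate 2 and 0.078 with the offsets.

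The system A transporters Slc38a1 and Slc38a2 differed in their values although both carry glutamine. Slc38a1 was at 18.2 and 17.1 CPM with vehicle, 18.7 and 19.1 under MASM7, and 18.9 and 21.7 under MFI8. Both MFI8 libraries were above vehicle, with a log2 fold change of 0.21 ± 0.097 (edgeR adjusted p = 0.521), which was 0.099 without MFI8 replicate 2. Slc38a2 was at 485 and 494 CPM with vehicle, 461 and 447 under MASM7, and 470 and 500 under MFI8. Here the MFI8 libraries lay on either side of the vehicle libraries. The log2 fold change was -0.015, with a 95% interval of -0.13 to 0.10, so that a change of the size seen in Slc7a11 lay outside the interval.

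The glycine transporter Slc6a9 was at 23.5 and 22.2 CPM with vehicle, 24.4 and 26.8 under MASM7, and 28.2 and 34.5 under MFI8. The 3 groups followed each other without overlap, and the log2 fold change for MFI8 against vehicle was 0.46 ± 0.11 (edgeR adjusted p = 0.276), or 0.30 without MFI8 replicate 2. Of the exon bases of Slc6a9, 27.8% are shared with Ccdc24, 9.94% with Gm17114 and 0.895% with B4galt2, all on the opposite strand. The strand setting of the counting is not given in the sources used here, so reads of these genes cannot be told apart there. Ccdc24 had 31 to 47 counts in each library and a log2 fold change of 0.15 (edgeR unadjusted p = 0.61), and Gm17114 had 0 counts. B4galt2 had 971 to 1399 counts and a log2 fold change of 0.068 (edgeR unadjusted p = 0.30). The other 9 members share no exon bases with another gene.

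**Figure D2:**
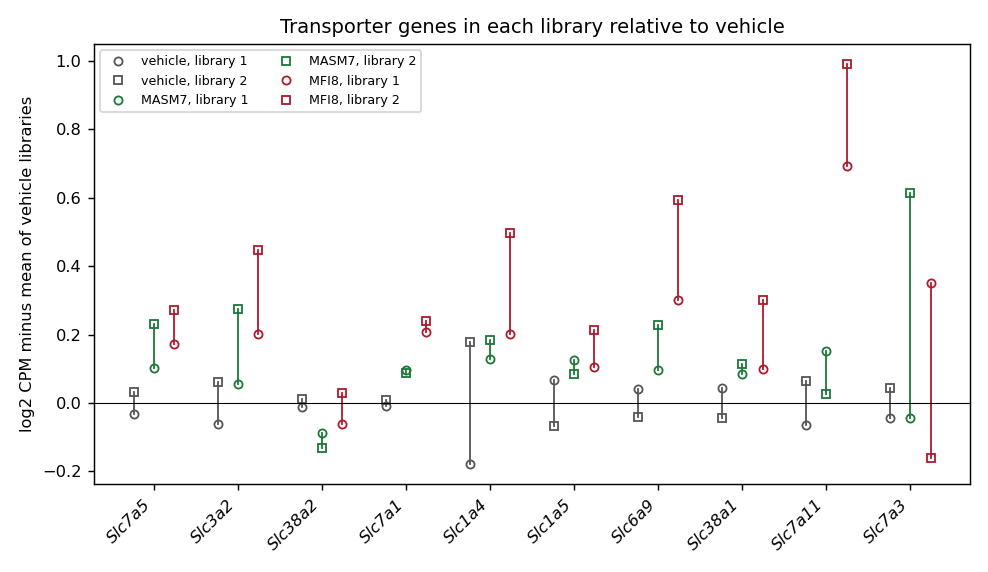
Log2 CPM of each transporter gene in each library minus the mean of the vehicle libraries, with circles for library 1, squares for library 2 and a line joining the 2 libraries of a group. Slc7a11 with MFI8 (red) lies highest in both libraries, and Slc38a2 lies near or below 0 in all 3 groups.

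Replicate 2 of the MFI8 group had the higher log2 CPM in 9 of the 10 transporters, with a median gap to replicate 1 of 0.16. In the vehicle group replicate 2 was higher in 7 with a median gap of 0.045, and in the MASM7 group it was higher in 6 with a median gap of 0.042. Over all genes tested, 50.8% were higher in MFI8 replicate 2. The size of the MFI8 differences therefore depended on the library, while in 9 members, all but Slc38a2, replicate 1 alone also lay above both vehicle libraries.

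When genes with low counts were kept in the edgeR fit, 6 transporters (Slc7a11, Slc7a5, Slc3a2, Slc7a1, Slc1a4 and Slc6a9) and 256 genes in all were called for MFI8 against vehicle, with adjusted p-values of the 6 from 3.0e-10 to 0.017. In that fit Atf3 and Chac1, described below, had adjusted p-values of 1.3e-40 and 1.4e-23 although their MFI8 replicates lay far apart. The main edgeR fit gave them 0.186 and 0.304. Calls with low counts kept, here and below, therefore track the spread between replicates poorly and add no weight. The sources used here do not say whether the libraries of a group came from separate cultures. The p-values of any fit measure at most the spread between these libraries, which may be technical.

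The comparison of MASM7 with vehicle asks how the same genes differed in cells given the mitofusin activator. Of the 10 transporters, 9 had a log2 fold change above 0, both MASM7 libraries lay above both vehicle libraries in 5 (Slc7a5, Slc7a1, Slc1a5, Slc38a1 and Slc6a9), and they lay below in 1 (Slc38a2). The leucine exchanger Slc7a5, at 1.12 times the vehicle level, was the only member with an unadjusted p under 0.05. The cystine transporter Slc7a11 overlapped between the groups.

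In edgeR 0 of the 10 transporters and 0% of all genes tested had an adjusted p under 0.05 for MASM7, and DESeq2 and limma each called 0 of the 10, where DESeq2 called 0.00747% of the genes to which it gave an adjusted p and limma 0 genes. With the replicate block in edgeR, 2 of the 10 (Slc7a5 and Slc3a2) and 3.88% of all genes were called. At an unadjusted p under 0.05, 1 of the 10 differed, as did 10.2% of all genes tested, 5.32% as higher and 4.88% as lower. Both libraries lay above vehicle for 21.2% of all genes and below for 21.6%, and 50.1% of all genes had a log2 fold change above 0. The median log2 fold change of the 10 was 0.12, against 0.00067 over all genes. For Slc7a5 the log2 fold change was 0.17 ± 0.061 (unadjusted p = 0.021, adjusted p = 0.473 in edgeR), or 0.10 without MASM7 replicate 2 and 0.077 with the same offsets. For Slc3a2 it was 0.17 ± 0.092 (adjusted p = 0.543), with the lower MASM7 library just below the higher vehicle library, and it was 0.056 without MASM7 replicate 2 and 0.27 without MASM7 replicate 1. For Slc7a1 it was 0.093 ± 0.048 (adjusted p = 0.531). For Slc7a11 it was 0.088 with a 95% interval of -0.19 to 0.36, and 0.024 without MASM7 replicate 1.

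The remaining transporters had intervals that included 0 with MASM7. The values were 0.10 for Slc1a5, 0.10 for Slc38a1, 0.14 for Slc1a4 and 0.16 for Slc6a9 on the log2 scale. Without vehicle replicate 2 they were 0.038 for Slc1a5 and 0.058 for Slc38a1, without vehicle replicate 1 the value for Slc1a4 was -0.021, and without MASM7 replicate 2 that for Slc6a9 was 0.096. Slc7a3 had the largest value of all, 0.35, but with an interval of -0.47 to 1.17, and it was -0.051 without MASM7 replicate 2. Slc38a2 was the member with lower values, by a log2 fold change of -0.11 ± 0.051 (edgeR unadjusted p = 0.059, adjusted p = 0.501). Its MASM7 libraries (461 and 447 CPM) were both below the vehicle libraries (485 and 494 CPM). The count at an unadjusted p under 0.05 was 0 without vehicle replicate 1 or without MASM7 replicate 2, and 2 without vehicle replicate 2, without MASM7 replicate 1 or without MFI8 replicate 1.

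**Figure D3:**
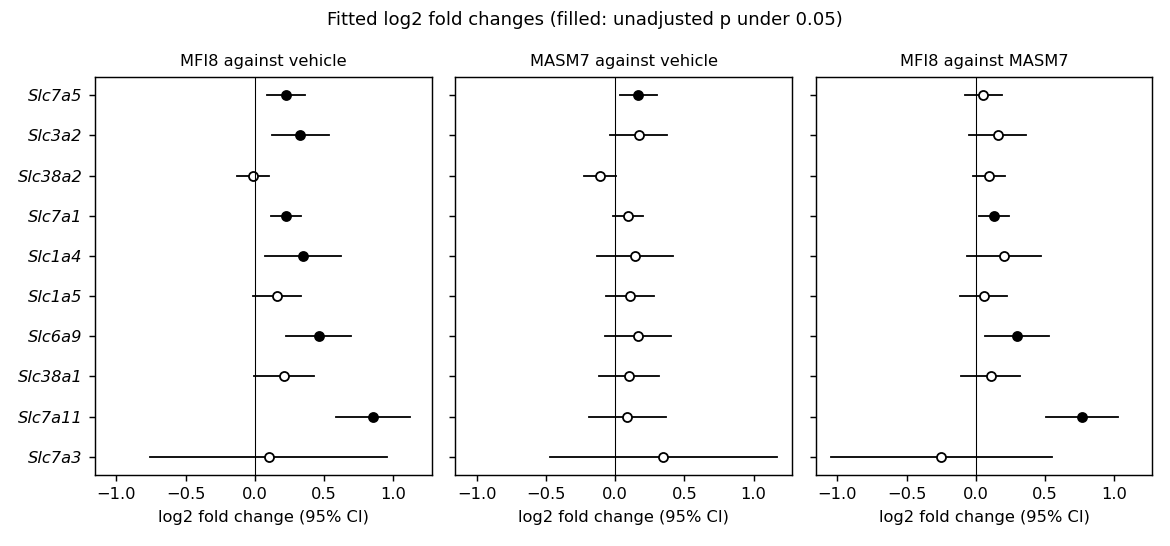
Fitted log2 fold changes of the 10 transporter genes with 95% confidence intervals for the 3 comparisons, with filled points where the unadjusted p was under 0.05. For MFI8 against vehicle 6 points are filled and Slc7a11 lies highest at 0.86, for MASM7 against vehicle only Slc7a5 is filled at 0.17, and for MFI8 against MASM7 Slc7a11, Slc6a9 and Slc7a1 are filled.

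The direct comparison of the compounds, at unequal concentrations, placed the cystine transporter first. Slc7a11 was at 1.70 times its MASM7 level with MFI8 (95% confidence interval 0.51 to 1.03 on the log2 scale), and Slc6a9 and Slc7a1 were also higher with MFI8 at an unadjusted p under 0.05. In both compounds' comparisons with vehicle the same 2 vehicle libraries were used, so those are not independent of each other, whereas this comparison does not use them except in the estimate of the spread. For 9 of the 10 genes the value was higher with MFI8, and for 5 of them both MFI8 libraries lay above both MASM7 libraries.

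For MFI8 against MASM7, 0 of the 10 transporters and 0% of all genes tested had an edgeR adjusted p under 0.05, or 3 of the 10 (Slc7a11, Slc3a2 and Slc6a9) and 3.07% of all genes with the replicate block. Without the block, 3 of the 10 and 7.18% of all genes had an unadjusted p under 0.05. These 3 (Slc7a11, Slc6a9 and Slc7a1) were all higher with MFI8, as were 4.23% of all genes at that limit, against 2.95% lower. Over all genes, 49.5% had a log2 fold change above 0, and both MFI8 libraries lay above both MASM7 libraries for 19.6% and below them for 19.6%. DESeq2 called 1 of the 10, Slc7a11 (adjusted p = 0.0018), and 0.231% of the genes to which it gave an adjusted p, and limma called 0 of the 10 and 0 genes in all. The edgeR log2 fold change of Slc7a11 was 0.77 ± 0.12 (unadjusted p = 6.9e-05, adjusted p = 0.165). That of Slc6a9 was 0.30 ± 0.10 (adjusted p = 0.617), or 0.14 without MFI8 replicate 2, and that of Slc7a1 was 0.13 ± 0.048 (adjusted p = 0.626). The intervals of Slc7a5 (-0.080 to 0.19), Slc3a2 (-0.046 to 0.36), Slc1a4 (-0.066 to 0.47), Slc1a5 (-0.11 to 0.23), Slc38a1 (-0.11 to 0.32) and Slc38a2 (-0.020 to 0.21) included 0. That of Slc7a3, from -1.04 to 0.55, was the widest of the 10. The median over the 10 genes was 0.12, against -0.0015 over all genes, and it was 0.037 without MFI8 replicate 2, where 1 gene had an unadjusted p under 0.05, as was also the case without MASM7 replicate 1.

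The light chains SLC7A5 and SLC7A11 share the heavy chain SLC3A2, so their transcript levels can be set against it within each library. Slc7a5 was at 1.41 and 1.36 times the TPM of Slc3a2 with vehicle, 1.43 and 1.34 times under MASM7, and 1.36 and 1.22 times under MFI8. Slc7a11 was at 1.53% and 1.53% of the TPM of Slc3a2 with vehicle, 1.63% and 1.29% under MASM7, and 2.16% and 2.24% under MFI8. The ratio of the cystine light chain to the heavy chain was thus higher in both MFI8 libraries than in the other 4, while that of the leucine light chain lay in or below the range of the others. Slc7a11 remained far below Slc7a5 in level, at 1.59% and 1.83% of the TPM of Slc7a5 with MFI8. These ratios were not tested.

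**Figure D4:**
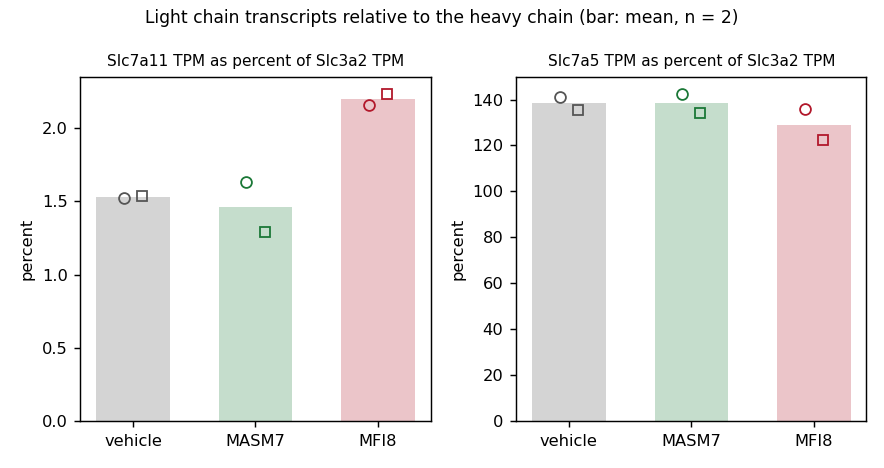
TPM of the light chain genes Slc7a11 (left) and Slc7a5 (right) as a percent of the TPM of the heavy chain gene Slc3a2, with circles for library 1, squares for library 2 and bars at the mean of the 2 libraries. Slc7a11 was at 2.16% and 2.24% with MFI8 and at 1.63% or less in the other 4 libraries, while Slc7a5 was between 122% and 143% throughout.

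Ratios within the other families were not tested either. Slc38a2 was at 52.1 and 56.4 times the TPM of Slc38a1 with vehicle, 48.0 and 45.7 times under MASM7, and 48.6 and 44.9 times under MFI8, so that both treated groups lay below vehicle. The ratio of Slc1a4 to Slc1a5 was 0.92 and 1.30 with vehicle, 1.10 and 1.17 under MASM7, and 1.17 and 1.33 under MFI8, which overlapped. Slc7a1 was at 103 and 97.9 times the TPM of Slc7a3 with vehicle, 111 and 67.6 times under MASM7, and 89.1 and 134 times under MFI8, which overlapped and rested on the few reads of Slc7a3.

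Other amino acid transporters gave a mixed picture. Of 45 further transporter genes listed, 44 were found under that symbol and 16 passed the filter on low counts. The 28 that did not had at most 13 counts in any library, and 12 of them had 0 counts in all. For MFI8 against vehicle 4 of the 16 were higher and 2 lower at an unadjusted p under 0.05, where 5.21% of all genes were higher and 4.65% lower, and the 6 were 3 without MFI8 replicate 2. The median log2 fold change was 0.12, and 0 had an adjusted p under 0.05 in edgeR, DESeq2 or limma. With the replicate block edgeR called 4 of the 16 (Slc38a7 and Ctns as higher, Slc38a4 and Slc1a3 as lower), against 5.04% of all genes. When genes with low counts were kept, Slc38a7 was called. The lysosomal glutamine exporter Slc38a7 was at 15.5 and 16.5 CPM with vehicle, 17.7 and 18.3 under MASM7, and 20.4 and 21.5 under MFI8, a log2 fold change of 0.39 ± 0.088 for MFI8 (edgeR adjusted p = 0.276). The lysosomal cystine exporter Ctns was at 7.10 and 6.52 CPM with vehicle, 6.90 and 7.17 under MASM7, and 9.62 and 9.30 under MFI8, a log2 fold change of 0.47 ± 0.12 for MFI8 (edgeR adjusted p = 0.341). In both genes the MFI8 libraries lay above the other 4.

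Values of Slc38a4 (SNAT4) and of the glutamate transporter Slc1a3 lay the other way. Slc38a4 was at 226 ± 10.6 TPM with vehicle, between Slc7a5 and Slc3a2 in level, and its log2 fold change was -0.16 ± 0.054 for MFI8 (edgeR adjusted p = 0.405) and -0.11 ± 0.053 for MASM7 (adjusted p = 0.518), the latter -0.067 without vehicle replicate 2. Slc1a3 was at 19.8 and 18.3 CPM with vehicle, 17.5 and 13.6 under MASM7, and 15.9 and 13.8 under MFI8. The fitted differences were -0.36 ± 0.13 on the log2 scale for MFI8 (edgeR adjusted p = 0.425) and -0.29 ± 0.13 for MASM7 (adjusted p = 0.488), the latter -0.12 without MASM7 replicate 2 and -0.48 without MASM7 replicate 1. For MASM7 the list had 1 gene higher at an unadjusted p under 0.05, the neutral amino acid transporter Slc6a15 at 0.20 ± 0.087, and 1 lower, Slc1a3, where 5.32% of all genes were higher and 4.88% lower. These 2 were 0 without vehicle replicate 2 or MASM7 replicate 2 and 1 without either MFI8 library. The median was 0.055, with 0 genes with an adjusted p under 0.05 by any of the 3 tools or with the replicate block. The proton-coupled transporter Slc36a4 had -0.15 ± 0.071 (edgeR adjusted p = 0.508), or -0.072 without vehicle replicate 2.

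**Figure D5:**
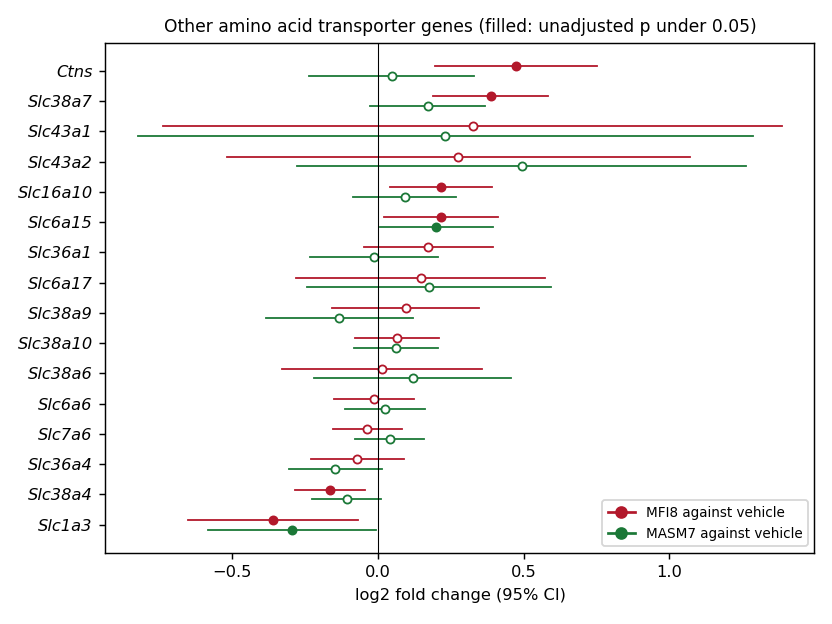
Fitted log2 fold changes with 95% confidence intervals of the 16 other amino acid transporter genes that passed the filter, for MFI8 (red) and MASM7 (green) against the same vehicle libraries, with filled points where the unadjusted p was under 0.05. Ctns at 0.47 and Slc38a7 at 0.39 are highest for MFI8, and Slc1a3 is lowest for both compounds at -0.36 and -0.29.

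Genes of glutathione, cysteine and thioredoxin metabolism had uneven values. Of 12 such genes 11 were tested, and 2 were higher and 0 lower at an unadjusted p under 0.05 for MFI8, where 5.21% of all genes were higher and 4.65% lower. The count was 4 without vehicle replicate 2 or MFI8 replicate 1 and 1 without MFI8 replicate 2, and the median log2 fold change was 0.051. Chac1, which encodes a glutathione-degrading enzyme and is a known ATF4 target, was at 13.2 and 14.5 CPM with vehicle, 15.0 and 23.5 under MASM7, and 21.4 and 40.2 under MFI8. With MFI8 the fitted log2 difference was 1.16 ± 0.28 (edgeR adjusted p = 0.304), and the MFI8 replicates lay far apart, so that it was 0.63 without replicate 2. Thioredoxin reductase Txnrd1 had 0.18 ± 0.050 (edgeR adjusted p = 0.349), and the subunits of the rate-limiting enzyme of glutathione synthesis, Gclc and Gclm, had 0.13 and 0.17 with intervals that included 0. Without vehicle replicate 1 Gclc had 0.085. Gclm had 0.056 without MFI8 replicate 2 and 0.28 without MFI8 replicate 1. For MASM7 the list had 0 genes at an unadjusted p under 0.05, or 1 without vehicle replicate 1, MASM7 replicate 1 or either MFI8 library, and a median of 0.027, with 0.47 ± 0.28 for Chac1, 0.13 for Gpx1, 0.084 for Gss and -0.073 for Gclc. Without MASM7 replicate 2 Chac1 had 0.11 and Gss 0.039, and without vehicle replicate 2 Gpx1 had 0.010 and Gclc -0.019. Larger values were 0.76 for Chac1 and 0.13 for Gss without MASM7 replicate 1. Without vehicle replicate 1 Gpx1 had 0.26 and Gclc -0.12. DESeq2, limma and edgeR called 0 of these genes for either compound, whereas edgeR with the replicate block called 3 for MFI8 (Chac1, Txnrd1 and Gclm, against 5.04% of all genes) and 1 for MASM7 (Chac1, against 3.88%). When genes with low counts were kept, Chac1 was called for both compounds.

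The 34 genes by which mTORC1, the amino acid-sensing growth kinase complex, registers amino acids were all tested. For MFI8 5 were higher and 1 lower at an unadjusted p under 0.05, against 9.86% of all genes in either direction, with a median log2 fold change of 0.054. In either direction there were 11 with the replicate block in edgeR, and 2 with DESeq2 or with the offsets for GC content and length. The count of 6 was 3 without vehicle replicate 2 or MFI8 replicate 1 and 2 without MFI8 replicate 2. The leucine sensor Sesn2 had 0.48 ± 0.13, the folliculin partner Fnip1 had 0.29 ± 0.087, the mTORC1 subunit Rptor had 0.14 ± 0.057 and the GATOR1 subunit Nprl2 had 0.30 ± 0.12, with edgeR adjusted p-values of 0.357 to 0.451. Without MFI8 replicate 2, Sesn2 had 0.28 and Fnip1 0.16, and without vehicle replicate 1 Nprl2 had 0.17. For MASM7 3 were higher and 1 lower, against 10.2% of all genes in either direction, with a median of 0.083, among them Sesn2 at 0.33 ± 0.13 and Rptor at 0.14 ± 0.057 as higher, and the GATOR2 subunit Seh1l at -0.15 ± 0.051 as lower, with edgeR adjusted p-values of 0.473 to 0.479. Without MASM7 replicate 2 Sesn2 had 0.21. The count of 4 was 2 without vehicle replicate 2 or MASM7 replicate 1 and 1 without MASM7 replicate 2. Sesn2 was at 25.7 and 30.3 CPM with vehicle, 32.4 and 38.3 under MASM7, and 34.0 and 44.2 under MFI8, so that both treated groups lay above vehicle. EdgeR, DESeq2 and limma called 0 of the 34 for either compound. With the replicate block edgeR called 2 for MFI8 (Sesn2 and Fnip1, against 5.04% of all genes) and 3 for MASM7 (against 3.88%), 1 of them higher, Sesn2. When genes with low counts were kept, Sesn2 was called for both compounds and Fnip1 for MFI8.

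Known regulators of these transporters were also listed. Of 17 such genes, all tested, 7 were higher and 1 lower at an unadjusted p under 0.05 for MFI8, against 5.21% and 4.65% of all genes, with a median log2 fold change of 0.14. The 8 were 5 without MFI8 replicate 2. In edgeR 0 had an adjusted p under 0.05, limma called 0, and DESeq2, which called 0.368% of the genes to which it gave an adjusted p, called 3: Ddit3 (adjusted p = 0.0030), Nfe2l2 (0.024) and Myc (0.025). With the replicate block edgeR called 8, 7 of them higher, against 5.04% of all genes, and when genes with low counts were kept it called Ddit3, Atf3, Nfe2l2 and Myc among the genes named here. Ddit3, which encodes the stress transcription factor CHOP, was at 12.1 and 11.2 CPM with vehicle, 13.9 and 14.1 under MASM7, and 17.5 and 21.3 under MFI8, a log2 fold change of 0.74 ± 0.12 for MFI8 (edgeR adjusted p = 0.0924). Atf3, another stress transcription factor, was at 2.24 and 3.06 CPM with vehicle, 2.47 and 3.65 under MASM7, and 6.75 and 20.9 under MFI8. The log2 fold change of 2.40 ± 0.46 for MFI8 (edgeR adjusted p = 0.186) rested on replicates that lay far apart, and it was 1.34 without MFI8 replicate 2.

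Atf4 itself was at 415 and 436 CPM with vehicle, 441 and 491 under MASM7, and 478 and 510 under MFI8, a log2 fold change of 0.22 ± 0.064 for MFI8 (edgeR adjusted p = 0.361) and 0.13 ± 0.064 for MASM7 (adjusted p = 0.505), the latter 0.052 without MASM7 replicate 2. ATF4 is known to be regulated mainly at translation, which these data do not measure. Nfe2l2 lay the other way from its known target Slc7a11, at 104 and 92.8 CPM with vehicle, 92.3 and 85.9 under MASM7, and 78.6 and 75.5 under MFI8, a log2 fold change of -0.35 ± 0.069 for MFI8 (edgeR adjusted p = 0.202). These values are of its transcript and not of its protein or activity, so whether NFE2L2 acted on Slc7a11 was not tested. Myc had 0.34 ± 0.077 (edgeR adjusted p = 0.270), or 0.23 without vehicle replicate 2. For MASM7 0 of the 17 had an unadjusted p under 0.05, or 3 without vehicle replicate 1 or MASM7 replicate 1 and 1 without any other library, and the median was 0.072, with 0.26 ± 0.12 for Ddit3, -0.14 ± 0.069 for Nfe2l2 and 0.14 ± 0.072 for the kinase Sgk1. Without vehicle replicate 1 Nfe2l2 had -0.059, and without vehicle replicate 2 Sgk1 had 0.056. DESeq2 and limma without the replicate block, and edgeR with it, called 0 of the 17 for MASM7. This does not cover DESeq2 or the offsets with the block.

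As a description, the log2 CPM of Slc7a11 over the 6 libraries was compared with that of the 14289 other genes tested. The genes most like it were the chemokine gene Cxcl10 (Pearson's r = 0.996), the transcription factor gene Zeb2 (r = 0.991) and Trim36 (r = 0.989). Their log2 fold changes for MFI8 against vehicle were 1.67, 0.32 and 0.80. Among the transporters r with Slc7a11 was 0.94 for Slc7a1, 0.89 for Slc6a9, 0.79 for Slc1a4, 0.78 for Slc38a1, 0.77 for Slc3a2, 0.69 for Slc7a5, 0.67 for Slc1a5, 0.37 for Slc38a2 and -0.22 for Slc7a3. The 6 points share their libraries and fall into 3 treatment groups, so these values carry no test.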

How the data were processed

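PolyA RNA from WT MEFs was sequenced in 6 libraries, 2 each for vehicle, MASM7 and MFI8, and samples were grouped by the treatment in their labels. Reads had been trimmed (Trimmomatic), aligned to mm10/GRCm38 (STAR) and counted per gene (featureCounts) by the authors. The deposited raw counts are whole numbers, and the deposited TPM values are scaled by the authors per transcript length and library. The annotation release and the strand setting are not given in the sources used here. Another table, of the authors' size-factor normalized values, was not used.

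The counts were fitted in edgeR 4.0.16 (R 4.3.3) over the 6 libraries at once, with TMM normalization, filterByExpr and 1 coefficient per group, which leaves 3 residual degrees of freedom, and tested by the quasi-likelihood F test with Benjamini-Hochberg adjustment over 14290 genes at 0.05. Standard errors came from the fold change and its F statistic. Single-library log2 CPM values used a prior count of 2. Depth was 22791792 to 30677751 counts. DESeq2 1.42.0, limma 3.58.1 on log2(TPM + 1) or log2(TPM + 0.1), other scalings and filters, offsets for GC content and transcript length (lowess span 0.3), the replicate number as a block and leaving out each library were the alternatives. The fits were tested on simulated data. Positions, exon overlaps, GC content and length came from GENCODE vM21, and promoters from RefSeq.

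The 10 members and the other lists were chosen with earlier results of these data known. All members were named, with up to 4 genes of each other list with the smallest unadjusted p in each comparison with vehicle and the 3 genes most like Slc7a11. A gene that this rule names is not reported here. The exceptions, chosen after their values were seen, are B4galt2, Ccdc24, Gm17114 and Tubb3, and Cd68, Adgre1, Cd3e and Kdr among the markers. All fibroblast and neural markers, Mfn1 and Mfn2 are also named outside this rule. No set test was made.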

Additional observations from a re-analysis of the deposited data

How the results depend on the processing

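The 10 transporter genes were refitted under 19 alternative settings, and no result answering a comparison turned its direction. Among single genes, Slc7a11 stayed higher with MFI8 than with vehicle in 19 of 19 settings, at 0.69 to 0.99 on the log2 scale, with an adjusted p under 0.05 in 5. Signs turned for 6 of the other members. On leaving out a library, the value for MFI8 against vehicle ran from -0.18 (without MFI8 replicate 1) to 0.38 for Slc7a3 and from -0.060 to 0.031 (without MFI8 replicate 1) for Slc38a2, which was 0.011 in each of 3 limma settings. For MASM7 against vehicle, Slc7a3 ran from -0.051 (without MASM7 replicate 2) to 0.65 and Slc1a4 from -0.021 (without vehicle replicate 1) to 0.34. For MFI8 against MASM7, Slc7a5 ran from -0.0062 (without MASM7 replicate 1) to 0.12, and Slc7a3 from -0.55 to 0.15 (without MASM7 replicate 2; 0.028 without MFI8 replicate 2). Slc1a5 ran from -0.0012 to 0.11 and Slc38a1 from -0.0022 to 0.20, both lowest without MFI8 replicate 2. Where a group is left with 1 library, it is assumed to vary like the others. With the offsets for GC content and length, single values that moved by over 1.5 times were 0.14 for Slc7a5, 0.078 for Slc1a5 and 0.031 for Rptor with MFI8 against vehicle. With MASM7 against vehicle they were 0.20 for Slc7a11, 0.077 for Slc7a5, 0.012 for Slc1a5, -0.034 for Slc38a2, 0.067 for Slc6a9, -0.054 for Slc36a4, -0.025 for Slc38a4, 0.055 for Gpx1, -0.045 for Gclc, -0.057 for Seh1l, 0.21 for Sesn2, 0.060 for Rptor and 0.051 for Atf4, and with MFI8 against MASM7 0.070 for Slc7a1, 0.032 for Slc38a1 and 0.014 for Slc38a2.

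For MFI8 against vehicle the number of transporters called was 6 with no filter beyond 1 count in any library, 1 with DESeq2 and 0 to 1 on leaving out a library, and all genes called were 256, 48 and 0 to 26. The median of 0.22 was 0.16 with GC content and length offsets and up to 0.29 on leaving out a library. For MASM7 against vehicle, transporters at an unadjusted p under 0.05 were 2 with library size alone, 2 with no filter, 0 with the offsets and 0 to 2 on leaving out a library. All genes called were 127 with no filter, 13 with limma and no filter, 2 with DESeq2, 1 with only the 2 groups compared and 0 to 2 on leaving out a library. For MFI8 against MASM7, 1 transporter was called with no filter, 1 with DESeq2 and 0 to 1 on leaving out a library, 5 had an unadjusted p under 0.05 with no filter and 1 to 4 on leaving out a library, and the median was 0.037 to 0.18. All genes called were 168 with no filter, 29 with DESeq2, 2 with only the 2 groups compared and 0 to 24 on leaving out a library. The causes were not tested.

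The labels number the libraries of each group 1 and 2 but mark no shared batch, and results are given without the block first. Deviations of same-numbered libraries from their group means correlated at 0.15 to 0.19 over 14290 genes and at 0.51 to 0.62 over the 7145 more highly expressed ones. With the replicate block, 6, 2 and 3 transporters were called for MFI8 against vehicle, MASM7 against vehicle and MFI8 against MASM7, among 720, 554 and 439 genes. DESeq2 with the replicate block called 3, 2 and 1 among 220, 205 and 106, and gave Slc7a11 no adjusted p for MFI8 against vehicle. The offsets with the replicate block called 6, 0 and 3 among 696, 231 and 972, with a median of 0.16 for MFI8 against vehicle. At an unadjusted p under 0.05 there were 5 transporters for MASM7 and 6 for MFI8 against MASM7 with the replicate block, 3 for MASM7 with DESeq2 and the replicate block, and 3 and 5 with the offsets and the replicate block.

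Depth limited Slc7a3, with at most 37 counts in a library. Intervals cover the spread of 2 libraries a group only.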
